A study of Mus musculus with 18 samples.

Results

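Red blood cells are the main cells of the body that carry hemoglobin, and whatever blood remains in the vessels of a brain sample adds its transcripts to the brain's own RNA. The 5 transcripts described here, Hbb-bs, Hbb-bt, Hba-a1, Hba-a2 and Alas2, were taken by symbol from a raw count table of 52459 symbols as a measure of that residual blood, and all 5 were in the table and among the 18891 genes with enough reads to be tested. The libraries came from hemibrains of APOE2/APOE2 (APOE2), APOE4/APOE4 (APOE4) and APOE3/APOE3 (APOE3) targeted-replacement mice, in which the mouse Apoe gene is replaced by the named human allele, on the C57bl/6 strain at 12 months of age. Each genotype had 6 mice, 3 females and 3 males, with 1 polyA-selected, stranded library a mouse. All 3 groups thus carry the replacement, and APOE3 served as the genotype for comparison. A hemibrain mixes all brain regions with vessels, choroid plexus and meninges, and the protocol in the labels describes removal and flash freezing and mentions no perfusion.

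Adult hemoglobin is a tetramer of alpha and beta chains, each holding a heme group. In the mouse the beta chains come from Hbb-bs and Hbb-bt, a pair of adjacent genes of the single-type haplotype, and the alpha chains from Hba-a1 and Hba-a2. Alas2 encodes the erythroid form of 5-aminolevulinate synthase, which makes the committed precursor of heme in red cell precursors, while Alas1 does so in other tissues. Reticulocytes, the young red cells that have lost their nucleus, still hold globin and Alas2 messenger RNA. Neurons and astrocytes have been reported to hold some hemoglobin messenger RNA of their own, so hemoglobin reads in a brain library need not all come from blood.

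The members of each globin pair are nearly the same sequence, which bears on how far their reads can be told apart. In the GENCODE annotation of GRCm38, Hbb-bs lies on the minus strand of chr7:103826534-103828096 and Hbb-bt on the same strand at chr7:103812524-103813996. Hba-a1 lies on the plus strand of chr11:32283511-32284465, Hba-a2 on the plus strand of chr11:32296489-32297298 and Alas2 on the plus strand of chrX:150547375-150570638. The 4 globin genes have 3 exons each and Alas2 has 11. The coding sequences of Hbb-bs and Hbb-bt, 441 bases each, differed at 1 base, and those of Hba-a1 and Hba-a2, 426 bases each, also differed at 1. Stretches of exon 3 ending at these bases are shown 5′ to 3′ on the coding strand, with the differing base in capitals. They cover coding bases 358 to 417 of the beta pair (chr7:103826692-103826751 and chr7:103812683-103812742) and 322 to 381 of the alpha pair (chr11:32284284-32284343 and chr11:32297101-32297160).
Hbb-bs: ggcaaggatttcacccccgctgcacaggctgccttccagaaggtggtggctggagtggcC
Hbb-bt: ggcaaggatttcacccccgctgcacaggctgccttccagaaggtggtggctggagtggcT
Hba-a1: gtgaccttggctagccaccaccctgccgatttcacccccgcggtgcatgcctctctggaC
Hba-a2: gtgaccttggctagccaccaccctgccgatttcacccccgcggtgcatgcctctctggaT

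The libraries were read as single reads of 50 bases, so the share of a transcript that can be assigned to 1 gene was counted in 50-base windows. Of the 579 windows of the Hbb-bs transcript 198 (34.2%) occurred in no other annotated gene, against 273 of 654 (41.74%) for Hbb-bt. For the alpha pair the unique windows were 211 of 650 (32.46%) in Hba-a1 and 66 of 505 (13.07%) in Hba-a2. All 1988 windows of Alas2 were unique. In each globin pair the windows shared with other genes were shared with the partner named above, and the labels do not say how reads that fit both copies were counted. The level of a single globin copy, and the split between 2 copies, are therefore less certain than the sum of a pair. Alas2 is the only member that shared no exact 50-base window with another annotated gene. Inexact matches and sequence outside annotated transcripts were not searched.

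The 250 bases before the RefSeq start of each gene (GRCm38.p6) are shown for 3 of the 5 members because these genes lie on different chromosomes and their transcripts moved together across libraries, as described further on. Capitals mark 4 short motifs on either strand: GATAA (the core bound by GATA1, the erythroid master regulator), CACCC (the core bound by KLF1), CCAAT and TATAA. The Hbb-bs sequence is chr7:103827929-103828178 on the minus strand, the Hba-a2 sequence chr11:32296242-32296491 on the plus strand, and the Alas2 sequence the first 200 of those bases, chrX:150547167-150547366 on the plus strand.
Hbb-bs: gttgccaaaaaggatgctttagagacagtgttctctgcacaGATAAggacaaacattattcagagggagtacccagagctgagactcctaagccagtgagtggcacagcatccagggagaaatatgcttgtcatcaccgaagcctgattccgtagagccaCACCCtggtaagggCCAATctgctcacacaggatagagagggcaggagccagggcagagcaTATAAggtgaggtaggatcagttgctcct
Hba-a2: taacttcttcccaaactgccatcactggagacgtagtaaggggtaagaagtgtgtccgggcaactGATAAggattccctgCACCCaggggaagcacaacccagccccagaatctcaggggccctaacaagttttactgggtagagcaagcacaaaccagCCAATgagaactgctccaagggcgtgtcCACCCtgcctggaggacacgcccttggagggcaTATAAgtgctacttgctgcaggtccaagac
Alas2: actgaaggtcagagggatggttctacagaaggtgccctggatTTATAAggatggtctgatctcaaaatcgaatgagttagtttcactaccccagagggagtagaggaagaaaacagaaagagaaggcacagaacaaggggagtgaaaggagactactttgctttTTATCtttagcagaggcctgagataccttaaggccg

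Of 32851 promoter windows of 300 bases, 250 before the start and 50 after it, GATAA was present in 25.4%, CACCC in 57.5%, CCAAT in 37.4% and TATAA in 24.9%, and all 4 together in 1.51%. All 4 were present in the windows of the 4 globin genes. The Alas2 window held all of them but CCAAT. In Hbb-bs the TATAA match began 29 bases before the start and the CCAAT match 76 bases before it, and in Hba-a2 these distances were 30 and 91. In Alas2 the TATAA letters began 207 bases before the start, and the 3 CACCC matches, on the opposite strand, lay 30 to 40 bases before it, in the part not shown. The Hba-a1 and Hba-a2 windows were 99% identical, whereas those of Hbb-bs and Hbb-bt were 73% identical. These matches describe letters only, and no binding was measured.

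Library totals ranged from 43818967 to 59394503 counts. The 5 transcripts together held 2242 to 10010 counts a library, a very small share of the RNA. The share was highest in APOE2 replicate 3, at 0.0202% (95% Wilson interval 0.0198% to 0.0206%), and lowest in APOE4 replicate 2, at 0.00458% (0.00440% to 0.00477%). These intervals cover counting error only. No label names a batch, and every replicate pair within a genotype differed by more than sampling noise, with a chi-square over genes of 5.66 to 45.9 per degree of freedom. In every library 6 neuronal markers summed to 5969 CPM or more.

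Hbb-bs was the most abundant of the 5, with a mean of 50.5 CPM (reads scaled to the library total, with edgeR's trimmed mean of M-values) over the 18 libraries. Hba-a1 averaged 11.7 CPM, Hbb-bt 9.47 CPM, Hba-a2 7.79 CPM and Alas2 3.35 CPM. Per kilobase of transcript the levels were 80.3 CPM for Hbb-bs, 16.7 CPM for Hba-a1, 14.1 CPM for Hba-a2, 13.5 CPM for Hbb-bt and 1.65 CPM for Alas2. Set against the unique part of each transcript alone, Hba-a2 came to 118 CPM per kilobase of unique window starts, above Hba-a1 at 55.3 and Hbb-bt at 34.7 and below Hbb-bs at 255, so the order of the lesser copies depended on how shared reads are handled. Alas2 stayed lowest on both scales.

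**Figure D1:**
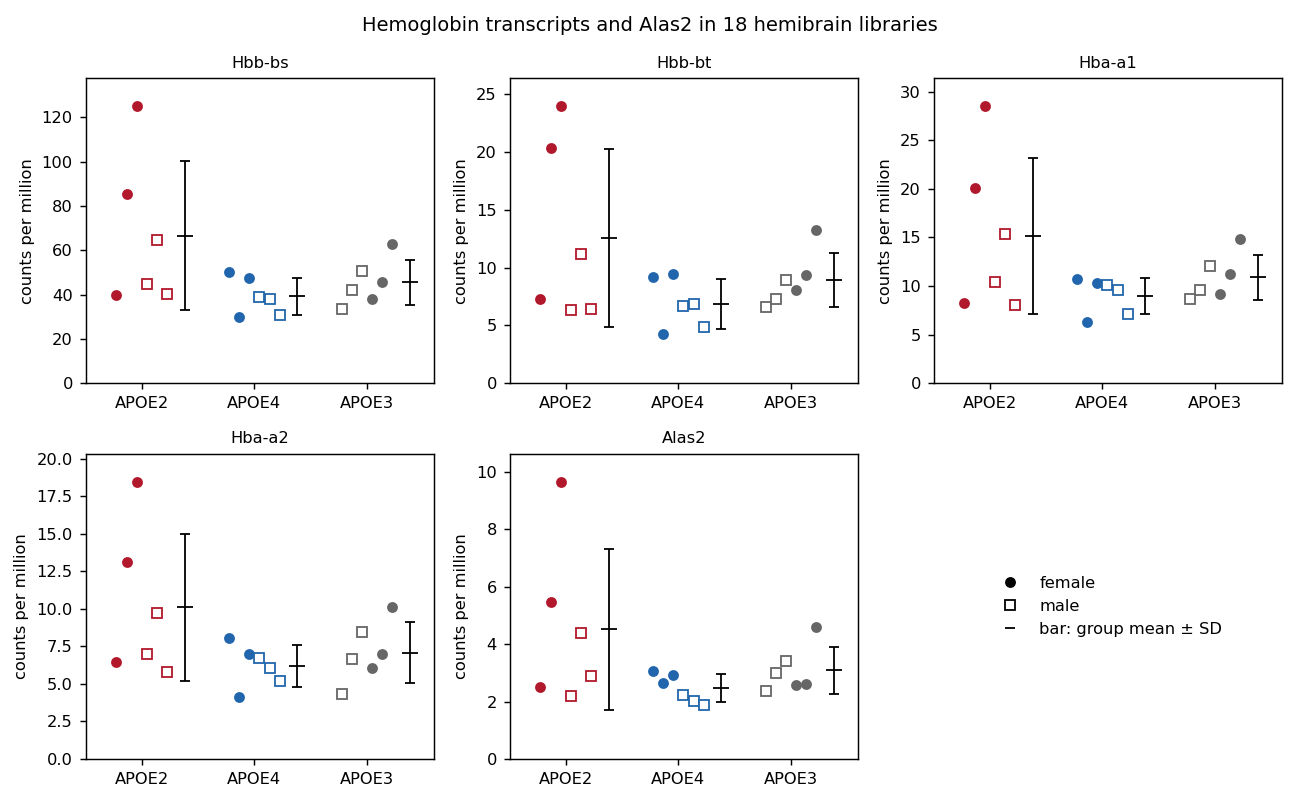
Level of each transcript in CPM in the 18 hemibrain libraries, by genotype, with filled circles for females and open squares for males. Bars are the group mean ± SD (n = 6). In all 5 panels the highest point is APOE2 replicate 3 (125 CPM of Hbb-bs) and the next is APOE2 replicate 2 (85.6 CPM), both females.

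All 5 transcripts varied widely between mice of the same genotype, and 2 APOE2 females stood above the rest. APOE2 replicate 3 ranked first and APOE2 replicate 2 second of 18 libraries for each of the 5. The highest library exceeded the lowest 4.20-fold for Hbb-bs, 5.66-fold for Hbb-bt, 4.56-fold for Hba-a1, 4.47-fold for Hba-a2 and 5.15-fold for Alas2. The lowest library was APOE4 replicate 2 for the 4 globins and APOE4 replicate 6 for Alas2. The biological coefficient of variation after genotype and sex, as edgeR estimates it, was 0.29 to 0.35 for the 5, against a median of 0.085 over all tested genes. Between 0.736% and 1.59% of tested genes had a larger one.

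Hbb-bs had 40.0, 54.5 and 125 CPM (lowest, median and highest) in APOE2 hemibrains, 29.8, 38.4 and 50.2 CPM in APOE4 and 33.6, 43.97 and 62.6 CPM in APOE3. All 6 APOE2 libraries were above the APOE4 median, and 3 of them were above the highest APOE4 library, yet the ranges overlapped in every pair of genotypes. The means were 66.7 ± 33.7 CPM in APOE2, 39.2 ± 8.44 CPM in APOE4 and 45.5 ± 10.3 CPM in APOE3 (SD, n = 6 each). In such bulk samples, fewer cells of a type and less RNA per cell cannot be told apart.

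Hbb-bt, the less abundant beta copy, had 6.38, 9.24 and 24.0 CPM (lowest, median and highest) in APOE2, 4.24, 6.78 and 9.46 CPM in APOE4 and 6.57, 8.51 and 13.3 CPM in APOE3. Hba-a1 had 8.05, 12.9 and 28.5 CPM in APOE2, 6.25, 9.84 and 10.7 CPM in APOE4 and 8.64, 10.4 and 14.8 CPM in APOE3. Hba-a2 had 5.76, 8.35 and 18.4 CPM in APOE2, 4.13, 6.41 and 8.06 CPM in APOE4 and 4.30, 6.82 and 10.1 CPM in APOE3. For Hbb-bt and Hba-a1 the APOE2 range enclosed the APOE3 range, and for all 3 the highest 2 APOE2 libraries were above every APOE3 library. Alas2 had 2.19, 3.64 and 9.66 CPM in APOE2, 1.87, 2.44 and 3.06 CPM in APOE4 and 2.36, 2.81 and 4.59 CPM in APOE3. For Alas2 3 of 6 APOE2 libraries were above the highest APOE4 library, and 3 of 6 APOE4 libraries were below the lowest APOE3 library.

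Against APOE3, the APOE2 libraries had higher fitted levels of all 5 transcripts, by 0.44 to 0.52 on the log2 scale, and none passed the test (edgeR's quasi-likelihood test, with genotype and sex as terms and Benjamini-Hochberg adjustment over 18891 genes). The log2 difference was 0.52 for Hbb-bs (SE 0.25, 95% interval -0.02 to 1.05, adjusted p = 0.314), 0.44 for Hbb-bt (SE 0.29, adjusted p = 0.483), 0.44 for Hba-a1 (SE 0.27, adjusted p = 0.439), 0.48 for Hba-a2 (SE 0.26, adjusted p = 0.372) and 0.49 for Alas2 (SE 0.27, adjusted p = 0.379). In this comparison 738 genes, 3.91% of those tested, were called, against 0 of the 5 members, and 0 of the 5 had an unadjusted p under 0.05, against 16.8% of those tested (1 of 5 by limma voom, 0 by DESeq2, with 0 called by either). Without APOE2 replicates 2 and 3, left out after their values were seen, the differences were 0.10 for Hbb-bs, -0.10 for Hbb-bt, -0.05 for Hba-a1, 0.06 for Hba-a2 and 0.01 for Alas2. The p-values in this text set a difference or relation against the spread between libraries, each of which is taken to be 1 mouse. Some of the tests described further on used only part of the 18 libraries.

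The APOE4 libraries had lower fitted levels of all 5 than APOE3 libraries, and again none passed the test. The log2 difference was -0.22 for Hbb-bs (SE 0.25, 95% interval -0.75 to 0.32, edgeR adjusted p = 0.909), -0.36 for Hbb-bt (SE 0.30), -0.27 for Hba-a1 (SE 0.28), -0.18 for Hba-a2 (SE 0.27) and -0.35 for Alas2 (SE 0.28, 95% interval -0.95 to 0.25, edgeR adjusted p = 0.828). Of all tested genes 146, or 0.773%, were called here. No member had an unadjusted p under 0.05 by edgeR, DESeq2 or limma voom, against 8.78% of all tested genes by edgeR.

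Of the 3 genotype pairs, the fitted differences were largest between APOE2 and APOE4, in the same direction for all 5. The log2 difference was 0.84 for Alas2 (SE 0.28, 95% interval 0.26 to 1.43, edgeR adjusted p = 0.0840) and 0.73 for Hbb-bs (SE 0.25, 95% interval 0.20 to 1.27, edgeR adjusted p = 0.106). It was 0.80 for Hbb-bt (SE 0.30, edgeR adjusted p = 0.140), 0.71 for Hba-a1 (SE 0.27, edgeR adjusted p = 0.157) and 0.66 for Hba-a2 (SE 0.26, edgeR adjusted p = 0.164). All 5 had an unadjusted p under 0.05, as did 3824 genes or 20.2% of those tested, and 0 of 5 were called, in a comparison where 1233 genes, 6.53% of those tested, were called. The 3 pairs of genotypes share their libraries, so these values are not independent of those above.

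Alas2 between APOE2 and APOE4 stood close to the threshold, and the side on which it fell changed with the tool, with robust estimation and with single libraries. DESeq2 called it (log2 difference 0.84, adjusted p = 0.0407) and limma voom did not, and over its 33 alternatives, subsets of the libraries and the fit with an Hbb-bs term included, the adjusted p ran from 0.0168 to 0.934. In the authors' deposited table of APOE2 against APOE4, Alas2 has a log2 fold change of 0.85 and an adjusted p-value of 0.0448, and is the only one of the 5 with an adjusted p-value under 0.05. The authors' deposited table gives Hbb-bs a log2 fold change of 0.73 with an adjusted p-value of 0.0636, and Hba-a2 one of 0.66 with an adjusted p-value of 0.122. Without APOE2 replicates 2 and 3 the edgeR log2 differences between APOE2 and APOE4 were 0.35 for Alas2 (adjusted p = 0.445), 0.31 for Hbb-bs, 0.27 for Hbb-bt, 0.23 for Hba-a1 and 0.25 for Hba-a2. When the reads of the copies were summed, the log2 difference was 0.74 for the beta pair (SE 0.26, edgeR adjusted p = 0.111) and 0.69 for the alpha pair (SE 0.27, edgeR adjusted p = 0.162).

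**Figure D2:**
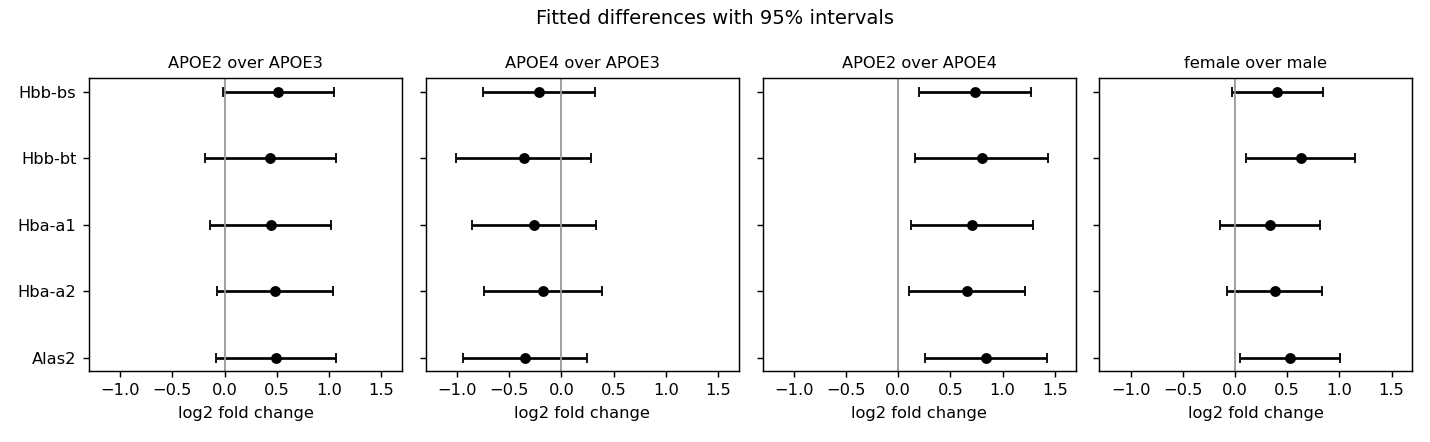
Fitted log2 fold change of each transcript, with its 95% interval, in 3 genotype comparisons and between the sexes, from edgeR on 18 libraries. All 5 points lie above 0 for APOE2 over APOE3, below 0 for APOE4 over APOE3 and above 0 for APOE2 over APOE4, where each interval leaves out 0 before adjustment for the number of genes tested.

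Females had higher fitted levels than males for all 5, and none passed the test. The log2 difference, female over male, was 0.41 for Hbb-bs (SE 0.20, edgeR adjusted p = 0.623), 0.63 for Hbb-bt (SE 0.24, edgeR adjusted p = 0.518), 0.34 for Hba-a1, 0.38 for Hba-a2 and 0.53 for Alas2 (SE 0.23, edgeR adjusted p = 0.551). An unadjusted p under 0.05 was found for 2 of the 5, Hbb-bt and Alas2, by edgeR, and for 2 of 5 by DESeq2 and by limma voom, against 8.46% of all tested genes by edgeR. Of tested genes 25, or 0.132%, were called between the sexes. Hbb-bs averaged 83.6 ± 42.6 CPM in APOE2 females and 49.8 ± 12.9 CPM in APOE2 males, 42.5 ± 11.1 CPM in APOE4 females and 35.8 ± 4.51 CPM in APOE4 males, and 48.9 ± 12.5 CPM in APOE3 females and 42.1 ± 8.60 CPM in APOE3 males (SD, n = 3 each). Letters at the end of sample titles, which the labels do not explain, also ran with sex and genotype: e marked all 6 APOE4 and APOE3 males and no female, f marked 4 of the 6 APOE4 and APOE3 females, and c marked 3 APOE2 libraries. No letter was shared between APOE2 and the other genotypes, so what the letters stand for cannot be told apart from APOE2 genotype, nor from sex in APOE4 and APOE3. Between the APOE4 and APOE3 males, the 6 libraries with e, the log2 difference of Hbb-bs was -0.23 (SE 0.36, edgeR adjusted p = 0.939). It came from a fit of all 18 libraries with 1 mean per genotype and sex, so the SE and p also draw on libraries without e. The 3 APOE2 females ranged from 40.0 to 125 CPM and so spanned most of the range of the whole study. Without the 2 highest libraries, both female, the log2 sex difference was 0.13 for Hbb-bs, 0.28 for Hbb-bt, 0.01 for Hba-a1, 0.10 for Hba-a2 and 0.19 for Alas2.

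Within females and within males, the fitted genotype differences of all 5 kept their signs, with wider errors. These came from a fit of all 18 libraries with 1 mean per genotype and sex. Between APOE2 and APOE4 the log2 difference of Hbb-bs was 0.97 in females (SE 0.36) and 0.47 in males (SE 0.36), and that of Alas2 was 1.02 in females (SE 0.38) and 0.62 in males (SE 0.40). Between APOE2 and APOE3 the log2 difference of Hbb-bs was 0.77 in females (SE 0.36) and 0.24 in males (SE 0.36). The difference between the sexes in the genotype effect, tested as an interaction, was called for none of the members. For Hbb-bs the interaction was 0.53 for APOE2 over APOE3 (SE 0.50, edgeR adjusted p = 0.923), 0.03 for APOE4 over APOE3 (SE 0.51) and 0.50 for APOE2 over APOE4 (SE 0.50). Over all genes edgeR called, for this interaction, 0 genes (0%) for APOE2 over APOE3, 2 genes (0.0106%) for APOE4 over APOE3 and 0 genes (0%) for APOE2 over APOE4, with 1094, 1287 and 485 genes at an unadjusted p under 0.05 in the same order.

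The 5 transcripts followed each other closely from mouse to mouse, including pairs on different chromosomes that share no 50-base window. Over the 18 libraries, on log2 CPM, Pearson's r with Hbb-bs was 0.98 for Hba-a1 (Spearman's rho 0.93), 0.98 for Hba-a2 (rho 0.96), 0.96 for Hbb-bt (rho 0.87) and 0.94 for Alas2 (rho 0.84). Each had a permutation p of 1e-05 for r, the smallest that 100000 resamples can give, and 3.5e-05 after adjustment over the 14 relations examined; for rho the adjusted permutation p lay between 7e-05 and 0.00014. Without APOE2 replicates 2 and 3, the libraries farthest from the median, r was 0.94 for Hba-a1, 0.95 for Hba-a2, 0.92 for Hbb-bt and 0.82 for Alas2 over 16 libraries. On residuals after genotype and sex it was 0.98, 0.97, 0.96 and 0.90 for the same genes in that order. Hbb-bt shares most of its windows with Hbb-bs, while the alpha genes and Alas2 share none.

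Within each genotype the alpha and beta transcripts still moved together, while r of Alas2 was lowest in APOE4, a difference between genotypes that was not tested. Over 6 libraries, r of Hbb-bs with Hba-a1 was 0.99 in APOE2, 0.91 in APOE4 and 0.99 in APOE3. That with Alas2 was 0.97 in APOE2 (exact permutation p = 0.00694, adjusted p = 0.0292), 0.64 in APOE4 (exact permutation p = 0.196, adjusted p = 0.392) and 0.93 in APOE3 (exact permutation p = 0.00556, adjusted p = 0.0259). The APOE4 libraries span the narrowest range of Alas2, 1.87 to 3.06 CPM. In APOE4 replicate 2, the library lowest in Hbb-bs, Alas2 was 2.64 CPM and ranked 10th of 18.

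**Figure D3:**
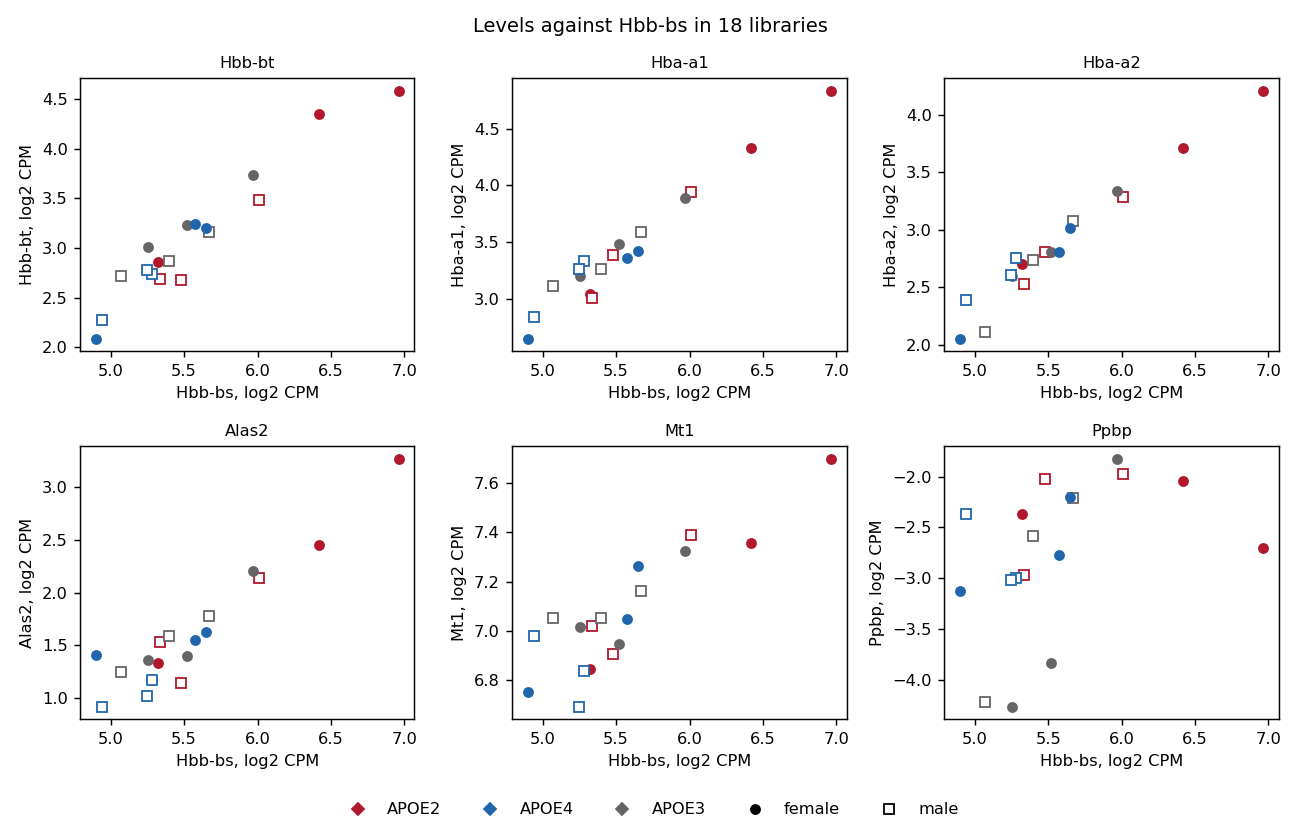
Log2 CPM of 6 transcripts against that of Hbb-bs in the 18 libraries, coloured by genotype, with filled circles for females and open squares for males. The other hemoglobin transcripts and Alas2 lie along a line (r = 0.94 to 0.98), Mt1 follows with more scatter (r = 0.88), and the platelet transcript Ppbp, at 2 to 14 reads a library, scatters widely (r = 0.42).

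The other blood cell, vessel and choroid plexus transcripts set against Hbb-bs here had lower r than the 4 other members; they are single chosen genes, and Vwf, of endothelium and platelets, had r = 0.77 and is described among the most alike genes. Slc4a1, the anion exchanger of the red cell membrane, was at 1 to 12 reads a library and had r = 0.49 (permutation p = 0.0389, adjusted p = 0.0908), with 52 reads over the APOE2 libraries, 26 over APOE4 and 31 over APOE3. Of the platelet chemokines, Ppbp had r = 0.42 (adjusted permutation p = 0.153) and rho 0.64 (adjusted permutation p = 0.0145), and Pf4 had r = 0.12 (adjusted permutation p = 0.629). The neutrophil proteins S100a8 and S100a9 had r = -0.19 and r = 0.19 (adjusted permutation p = 0.470 for each) at 0 to 43 and 3 to 70 reads a library.

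The immunoglobulin light chain Igkc had r = 0.64 (adjusted permutation p = 0.0180) but rho 0.30 (adjusted permutation p = 0.351), and r was 0.24 without the 2 libraries farthest from the median, so that relation rested on those libraries. The endothelial genes Cldn5 and Pecam1 had r = -0.30 and r = 0.28 (adjusted permutation p = 0.323 and 0.342), and Ttr, of the choroid plexus, had r = -0.34 (adjusted permutation p = 0.265). The percent of counts on mitochondrial genes was 3.30 to 4.72 in APOE2, 3.20 to 4.43 in APOE4 and 3.34 to 3.82 in APOE3, and its r with Hbb-bs was 0.47 over all libraries (permutation p = 0.0469; rho 0.19, permutation p = 0.454), 0.14 without the same 2 and 0.31 on residuals. Its part in the hemoglobin levels was not tested.

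**Figure D4:**
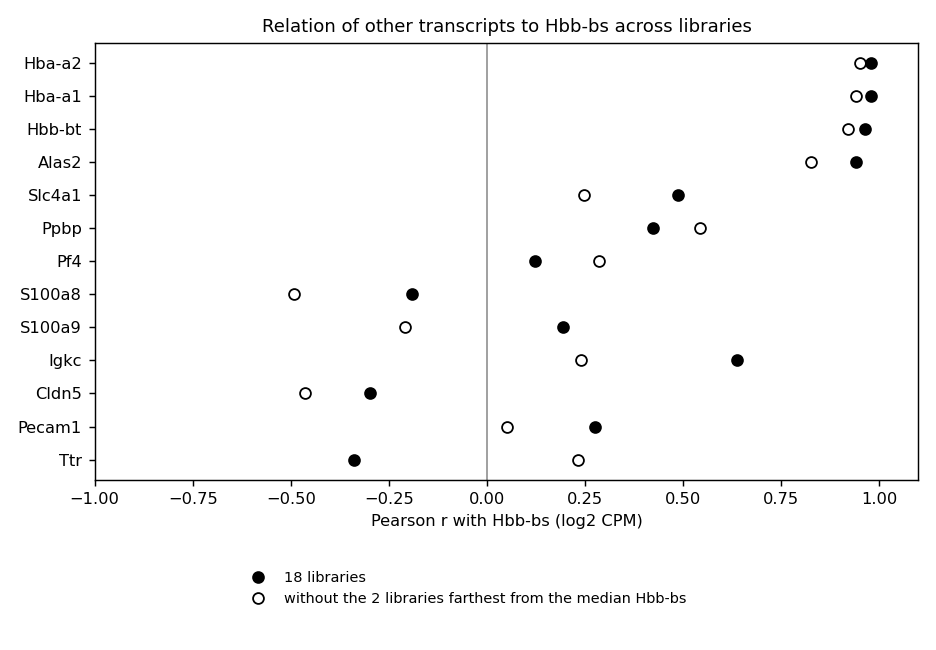
Pearson r of other transcripts with Hbb-bs on log2 CPM, over all 18 libraries (filled) and without the 2 libraries farthest from the median Hbb-bs level (open). The 4 other members stay between 0.82 and 0.98 in both, and no other transcript drawn exceeds 0.64; Mt1, Mt2 and Vwf are among the genes above that which are not drawn.

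The proportions between the globins varied less than their levels within every genotype, and the ratio of Alas2 to globin did so in APOE2 and APOE3 but not in APOE4. Across the 18 libraries Hbb-bt made up 15.4% ± 1.76 of beta-globin reads (SD, n = 18), between 12.5% and 19.2%, and Hba-a2 made up 40.1% ± 2.28 of alpha-globin reads, between 33.2% and 44.1%. There were 32.7 ± 1.89 alpha-globin reads for each 100 beta-globin reads and 4.19 ± 0.647 Alas2 reads for each 100 globin reads (SD, n = 18 each). Within a genotype the coefficient of variation of the 3 globin ratios lay between 2.04% and 14.9%, against 20.5% to 61.1% for the CPM levels of the 4 globins. That of the Alas2 ratio was 14.9% in APOE2, 22.9% in APOE4 and 8.72% in APOE3, against 62.2% in APOE2, 19.9% in APOE4 and 26.7% in APOE3 for the Alas2 level.

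No genotype difference in the 4 ratios passed the threshold in 12 two-sided exact permutation tests. Hbb-bt was 15.3% ± 2.29 of beta-globin reads in APOE2, 14.7% ± 1.46 in APOE4 and 16.3% ± 1.21 in APOE3 (SD, n = 6 each), and the lowest p of the family was that of APOE4 minus APOE3, a difference of -1.66 percentage points (exact permutation p = 0.0628, adjusted p = 0.740). The Hba-a2 share was 40.6% ± 1.996 in APOE2, 40.7% ± 1.58 in APOE4 and 39.0% ± 2.99 in APOE3. Alpha-globin reads for each 100 beta-globin reads were 31.8 ± 1.64 in APOE2, 33.2 ± 2.76 in APOE4 and 33.0 ± 0.674 in APOE3. Alas2 reads for each 100 globin reads were 4.20 ± 0.625 in APOE2, 4.10 ± 0.939 in APOE4 and 4.26 ± 0.371 in APOE3, and the exact permutation p of APOE2 minus APOE4, a difference of 0.10, was 0.835. Thus, over all their libraries, the ratio of Alas2 to globin differed between APOE2 and APOE4 by less than the spread between mice. Both quantities were higher in APOE2 in the fit. The closeness of the 2 means depended on APOE4 replicate 2, where the ratio was 5.95, the highest of its group. Leaving out single libraries in turn gave differences from -0.06 to 0.47, the largest without APOE4 replicate 2.

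Between the sexes 2 of these ratios differed by a small amount, in a comparison added after the values were seen. Hbb-bt made up 16.3% ± 1.87 of beta-globin reads in females and 14.5% ± 1.11 in males (SD, n = 9 each; exact permutation p = 0.0237, adjusted over 4 tests p = 0.0475). Alpha-globin reads for each 100 beta-globin reads were 31.7 ± 1.004 in females and 33.7 ± 2.07 in males (SD, n = 9 each; exact permutation p = 0.0181, adjusted p = 0.0475). The second difference was widest in APOE4, with 30.3 to 31.6 in the 3 females and 34.8 to 37.0 in the 3 males, and was 32.8 to 32.9 in females and 32.2 to 34.3 in males of APOE3. Leaving out single libraries in turn raised the adjusted p of either ratio above 0.05 for 16 of the 18 libraries.

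**Figure D5:**
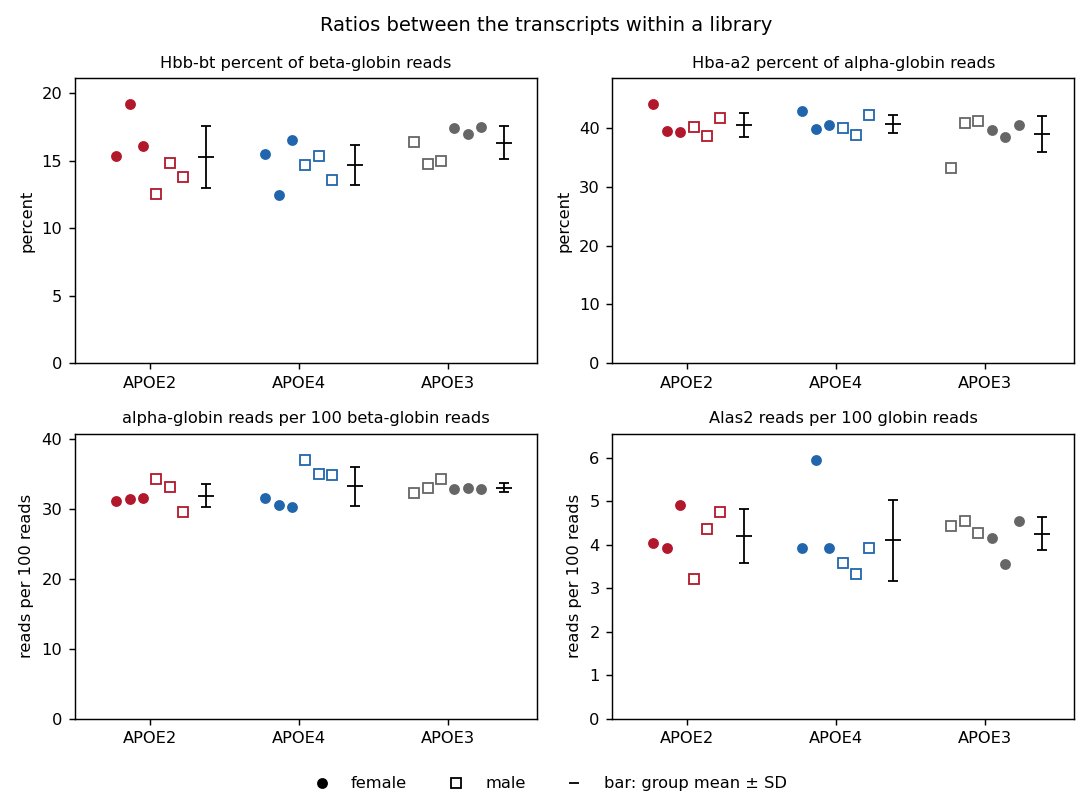
The 4 ratios between the transcripts in each library, by genotype, with filled circles for females and open squares for males and the group mean ± SD (n = 6). All vertical axes start at 0, and the genotype means lie within 14.7% to 16.3% for Hbb-bt, 39.0% to 40.7% for Hba-a2, 31.8 to 33.2 for alpha over beta and 4.10 to 4.26 for Alas2.

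Other globin genes of the red cell lineage gave few or no reads. The genes Hbb-bh0, Hbb-bh1, Hbb-bh2, Hbb-bh3 and the embryonic Hba-x had 0 reads in all libraries. Hbb-y, the embryonic epsilon-like beta gene, had 52 reads in all, of which 27 were in APOE2, 15 in APOE4 and 10 in APOE3, with up to 15 in 1 library. The theta globin Hbq1a, at 0.28 ± 0.06 CPM in APOE2, 0.33 ± 0.08 CPM in APOE4 and 0.31 ± 0.05 CPM in APOE3 (SD, n = 6 each), was not called in any comparison. Neuroglobin (Ngb) and cytoglobin (Cygb), the globins of neurons and of fibroblast-like and other cells, had log2 differences of -0.06 and 0.03 for APOE2 over APOE3 and 0.06 and -0.01 for APOE2 over APOE4, and the 4 genes of that list were not called in any comparison.

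Other enzymes of heme synthesis are used by every cell. Alas1, the housekeeping counterpart of Alas2, was at 60.8 ± 2.98 CPM in APOE2, 57.7 ± 2.504 CPM in APOE4 and 60.4 ± 1.99 CPM in APOE3 (SD, n = 6 each), and was not called in any comparison. Fech, the ferrochelatase that inserts iron, had a log2 difference of 0.10 for APOE2 over APOE4 (SE 0.04, edgeR adjusted p = 0.172).

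Of 11 genes of erythroid iron and heme transport 10 were tested and none was called, in genotype pairs where 0.773% to 6.53% of all tested genes were. Tfrc, the transferrin receptor, was at 143 ± 10.99 CPM in APOE2, 128 ± 17.4 CPM in APOE4 and 124 ± 9.76 CPM in APOE3 (SD, n = 6 each), and Slc25a37, the mitochondrial iron importer mitoferrin, at 50.0 ± 4.28 CPM in APOE2, 44.9 ± 2.01 CPM in APOE4 and 50.2 ± 4.15 CPM in APOE3. The 10 genes of hemoglobin and heme clearance, among them Lrp1, Hmox1 (heme oxygenase) and Fth1 (ferritin heavy chain), were also not called. Hmox1 had a log2 difference of 0.11 for APOE2 over APOE3 (SE 0.08, edgeR adjusted p = 0.479) and -0.01 for APOE2 over APOE4 (SE 0.08).

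Of 20 red cell membrane genes 12 passed the filter. Rhag, a red cell membrane protein, had 3 reads in all and did not pass. Sptb, a beta spectrin that neurons also hold, rose in APOE2, to 304 ± 11.6 CPM, against 263 ± 19.7 CPM in APOE4 and 262 ± 11.4 CPM in APOE3 (SD, n = 6 each), with log2 differences of 0.21 to both (SE 0.04, edgeR adjusted p = 0.00356 against APOE4 and 0.00423 against APOE3). Cd59a, a complement inhibitor on red cells and other cells, fell in APOE2, to 6.23 ± 1.45 CPM, against 13.3 ± 0.974 CPM in APOE4 and 13.0 ± 1.27 CPM in APOE3, with log2 differences of -1.11 against APOE4 and -1.08 against APOE3 (SE 0.09, edgeR adjusted p = 2.51e-09 and 5.88e-09). The 12 tested members of the list had a median log2 difference of 0.01 for APOE2 over APOE3 and 0.04 for APOE2 over APOE4.

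None of the 9 tested red cell enzyme and cytosol genes was called, among them Car2 (carbonic anhydrase 2) and Prdx2 (peroxiredoxin 2). Between genotypes 0.773% to 6.53% of all tested genes were called. Of 9 tested genes of reticulocyte maturation, Fam210b, a mitochondrial protein of erythroid heme synthesis, rose in APOE2 against APOE4 by 0.18 on the log2 scale (SE 0.05, edgeR adjusted p = 0.0156), while Bnip3l, which clears mitochondria from reticulocytes, was not called. Of 6 tested erythroid transcription factors and receptors, Zfpm1, the GATA1 partner FOG1, fell in APOE2 against APOE4 by 0.25 on the log2 scale (SE 0.06, edgeR adjusted p = 0.0198). Gata1 itself had 0 or 1 read in each library and Klf1 2 to 13.

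Markers of other cells that blood carries are set beside the hemoglobin levels here, and their part in those levels was not tested. The 15 neutrophil markers, 4 of them tested, summed to 8.24 to 14.3 CPM in APOE2, 8.27 to 9.88 CPM in APOE4 and 8.15 to 10.7 CPM in APOE3. Csf3r, with the most reads of the list, had 1976 in APOE2, 1910 in APOE4 and 1918 in APOE3. In the same order S100a8 had 134, 62 and 45 reads, Ngp 68, 21 and 27, and Lcn2 189, 27 and 28, with 121 Lcn2 reads in 1 library. Of the 4 tested markers 2 had a positive log2 difference for APOE2 over APOE3, and none was called. S100a9 had a log2 difference of 1.52 for APOE2 over APOE3 (SE 0.46, edgeR adjusted p = 0.0784), and Ly6g had 3 reads in all. The 13 platelet markers, 8 tested, summed to 13.8 to 16.5 CPM in APOE2, 14.7 to 17.5 CPM in APOE4 and 15.2 to 17.2 CPM in APOE3, and Gp9 and Gp5 of the platelet von Willebrand factor receptor fell in APOE2 against APOE4 by 1.49 and 0.62 on the log2 scale (edgeR adjusted p = 0.000627 and 0.0153). The 9 B and plasma cell markers summed to 29.99 to 57.5 CPM in APOE2, 18.2 to 21.6 CPM in APOE4 and 34.9 to 41.5 CPM in APOE3. In that list Igkc rose in APOE2, to 2.82 ± 1.72 CPM, against 0.936 ± 0.256 CPM in APOE4 and 0.781 ± 0.111 CPM in APOE3 (SD, n = 6 each), by 1.55 on the log2 scale against APOE4 (SE 0.31, edgeR adjusted p = 0.00318). Ighm (IgM heavy chain) and Ighg2c (IgG2c heavy chain) also rose in APOE2 against APOE4, and fell in APOE4 against APOE3, where Ighg2c was at 0.08 ± 0.04 CPM in APOE4, against 4.43 ± 0.323 CPM in APOE3. These 2 were the only markers of the list called for APOE4 over APOE3. Of the 6 tested markers 4 had a positive log2 difference in that pair, with a list median of 0.25. Over all tested genes 52% were positive. The lower APOE4 sum was thus not shared by most tested markers of the list. Jchain, which joins IgM and IgA chains, rose in APOE2 against APOE3, and of 4 tested T cell markers Lck rose against both.

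Markers of the vessel wall showed no called genotype difference. The 13 endothelial markers summed to 378 to 440 CPM in APOE2, 379 to 438 CPM in APOE4 and 375 to 436 CPM in APOE3, and the 10 mural cell markers to 214 to 290 CPM in APOE2, 238 to 271 CPM in APOE4 and 215 to 285 CPM in APOE3. None of these 23 genes was called in any of the 3 pairs. Of all tested genes 3.91% were called for APOE2 over APOE3, 0.773% for APOE4 over APOE3 and 6.53% for APOE2 over APOE4. At such shares few calls would fall among 23 genes. Choroid plexus markers summed to 452 to 1192 CPM in APOE2, 474 to 828 CPM in APOE4 and 585 to 812 CPM in APOE3, and meningeal markers to 166 to 298 CPM in APOE2, 153 to 214 CPM in APOE4 and 129 to 277 CPM in APOE3. Of these 22 genes 1, Prlr of the choroid plexus list, was called: it rose in APOE2 against APOE3 (log2 difference 0.76, SE 0.15, edgeR adjusted p = 0.00484). In that pair all 10 choroid plexus genes had a positive log2 difference, with a median of 0.43. By edgeR 7 of the 10 had an unadjusted p under 0.05, against 16.8% of all tested genes. Of 12 meningeal genes 9 were positive, with a median of 0.32. For APOE2 over APOE4 the 2 medians were 0.22 and 0.06. Their part in the hemoglobin levels was not tested. Of the neuronal and glial genes used to check the tissue, Gfap rose in APOE2 against both, and Gad2 against APOE3.

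The genes outside the 5 whose levels were most like that of Hbb-bs across the 18 libraries, by Pearson r on log2 CPM among the 14822 tested genes that averaged 1 CPM or more, were led by the metallothioneins, which bind zinc and copper. They were Mt1 (r = 0.88), Mt2 (r = 0.82), Coq5 (r = 0.81), Glipr2 (r = 0.81), Immp2l (r = 0.81), Pm20d1 (r = 0.79), Ndrg2 (r = 0.79), Pold4 (r = 0.77), Cystm1 (r = 0.77) and Vwf (r = 0.77). All lay below the 4 other members, of which Alas2 was lowest at r = 0.94. Without APOE2 replicates 2 and 3, r was 0.76 for Mt1, 0.75 for Mt2 and 0.74 for Immp2l and between 0.45 and 0.72 for the other 7. On residuals after genotype and sex the 10 most alike were Immp2l (r = 0.87), 1700008J07Rik (r = 0.85), Mt1 (r = 0.85), Mrps16, Fxyd2, Zfp954, Psmb3, Mrps33, Car4 and Tmed9, so that Mt1 and Immp2l were in both sets. These values were picked as the highest of many and carry no test.

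A fit of every gene on the Hbb-bs level beside genotype and sex, added after the values were seen, called 5 of 18890 genes (0.0265%), with 1599 at an unadjusted p under 0.05. These were the 4 other members and Mt1, all with positive slopes, and limma voom called the same 5. DESeq2 called 21 genes (0.111%), of which 8 had a positive slope, these 5 with Mt2, Nfkbia and Fxyd2, and 13 a negative one, from -0.69 to -0.13. By edgeR the lowest adjusted p of those 13 was 0.131. The slope, in log2 units for each log2 unit of Hbb-bs, was 1.09 for Hba-a1 (SE 0.06), 1.04 for Hba-a2 (SE 0.07), 1.17 for Hbb-bt (SE 0.09) and 1.03 for Alas2 (SE 0.12, edgeR adjusted p = 0.000108). It was 0.46 for Mt1 (SE 0.07, edgeR adjusted p = 0.00763), a shallower slope than those of the members. Mt1 was at 115, 147 and 208 CPM (lowest, median and highest) in APOE2, 103, 120 and 154 CPM in APOE4 and 123, 133 and 160 CPM in APOE3, with ranges that overlapped. The Mt1 call was lost without APOE2 replicate 1 (slope 0.43, edgeR adjusted p = 0.272) and without APOE2 replicate 3 (slope 0.44, edgeR adjusted p = 0.331), whereas the 4 other members were called without any one library. With the Hbb-bs level held in this fit, the log2 difference of Alas2 was -0.06 for APOE2 over APOE3 (SE 0.13) and -0.10 for APOE4 over APOE3 (SE 0.12). For APOE2 over APOE4 it was 0.03 (SE 0.15). Because Hbb-bs is itself a member with r = 0.94 to Alas2, holding it removes what the 2 share. Why Alas2 differed between genotypes was not tested by this fit.

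By edgeR and that same slope no list of red cell, platelet, neutrophil, vessel, choroid plexus or meningeal genes had a called gene other than the members. Of 12 meningeal genes 11 had a positive slope, with a median of 0.18, while all 10 choroid plexus genes had a negative one, with a median of -0.30. The genes of a list were fitted on the same libraries, so their signs are not independent, and the counts were not tested. For the choroid plexus gene Ttr, r with Hbb-bs was -0.34 over all 18 libraries. It was 0.23 without the 2 libraries farthest from the median. Within genotypes it was -0.66 in APOE2, -0.40 in APOE4 and 0.36 in APOE3. The negative sign for Ttr thus depended on the libraries included. Over all genes 49.2% of slopes were positive and the median was -0.0019.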

How the data were processed

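RNA from 18 mouse hemibrains was sequenced by the submitters. Per the submitters' processing notes, reads were aligned with STAR 2.7.0 to GRCm38 (mm10) and counted with featureCounts. Their annotation release, strand setting and handling of multiply matching reads are not stated there. The authors deposited raw counts per gene symbol, and 26 symbols had been turned into dates (0.304% to 0.322% of counts). The authors' deposited tables of 3 comparisons hold, per the file headers, the mean normalised signal (baseMean), a log2 fold change, a test score (stat), and p-values, raw and adjusted; their APOE3 against APOE4 table runs APOE3 over APOE4.

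Genes were filtered with filterByExpr on the design, scaled by TMM and fitted with edgeR 4.0.16 (quasi-likelihood, robust, genotype and sex as terms, called at an adjusted p under 0.05) in R 4.3.3; DESeq2 1.42.0 and limma 3.58.1 were alternatives. In data simulated for APOE2 over APOE3 on 18891 genes, 95% of 100 planted 2-fold and 98% of 100 planted 4-fold changes were recovered, with 3.02% false calls. The planted genes were drawn from all tested genes, whose median biological coefficient of variation was 0.085, against 0.29 to 0.35 for the members. Recovery among genes as variable as the members was not measured, so these shares do not describe the members. Log2 CPM for correlations used a prior count of 0.5. Permutation tests used scipy 1.17.1 and numpy 2.4.6 under Python 3.11.15. Titles hold a mouse number, and most end in a letter that the labels do not explain; neither was used to pair mice or as a batch. Replicate numbers follow accession order. The members and gene lists were chosen with earlier results of these data known. Named were all 5 members, list genes that were called or among the 4 most abundant of their list or have a described role, and the 10 genes most like Hbb-bs. Sequences come from GENCODE vM21 transcripts and the RefSeq promoter table (GRCm38.p6); all 5 members matched. Ahsp and Flvcr1 were not found under those symbols and were not analysed here. Some genes of the lists are not reported here.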

Additional observations from a re-analysis of the deposited data

Results flagged for a closer look

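In groups of 6 libraries the highest or lowest value stood far from the others, by Dixon's criterion at the 95% level, in 5 of 75 groups examined, and chance alone gives about 1 in 20. The Alas2 reads for each 100 globin reads were 5.95 in APOE4 replicate 2, the library lowest in all 4 globins, against 3.32 to 3.92 in the 5 other APOE4 libraries. Hba-a2 made up 33.2% of alpha-globin reads in APOE3 replicate 1 (195 of 587 reads, 95% Wilson interval 29.5% to 37.1%), against 38.5% to 41.1% in the 5 others. Alpha-globin reads for each 100 beta-globin reads were 34.3 in APOE3 replicate 3, against 32.2 to 32.9 in the 5 others. Zfpm1 was 22.7 CPM at its lowest in APOE4, where the group mean was 28.4 CPM. Gp5 was 1.05 CPM at its highest in APOE2. No level of a member stood apart in this sense within its genotype.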

How the results depend on the processing

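Across the alternatives run, 609 values of the members kept their side of the threshold and 6 passed it, all between APOE2 and APOE4. These were Alas2 with DESeq2 (0.84) and, without robust estimation, Alas2 (0.84, adjusted p = 0.04316) and Hbb-bs (0.73, adjusted p = 0.03723), and 3 that left out 1 library. Leaving out each library in turn gave Alas2 0.54 to 0.99 (called without APOE2 replicate 1 or 4) and Hbb-bs 0.51 to 0.86 (called without APOE2 replicate 1). The correlation with Hbb-bs within APOE4 passed no adjusted threshold for Hbb-bt (0.99) or Alas2 (0.64). That of Igkc was -0.19 within APOE4, and that of the mitochondrial percent was -0.39. The 144 alternatives of the genotype ratios changed no call.

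Called genes moved by over 1.5 times under DESeq2 (272 for APOE4 over APOE3, 59 between sexes, 21 for the slope on Hbb-bs, 13 of them negative) and with no filter (53 between sexes). Called genes were also counted within each sex, from a fit of all 18 libraries with 1 mean per genotype and sex. Within females they were 382 for APOE2 over APOE3, 80 for APOE4 over APOE3 and 539 for APOE2 over APOE4. Within males they were 368, 67 and 454 in that order, with fewer samples in each comparison. Without single libraries the called genes of the main fit ranged from 574 to 1026 for APOE2 over APOE3 and 104 to 162 for APOE4 over APOE3. Between sexes they ranged from 21 to 37, and for APOE2 over APOE4 from 947 to 1903, the highest without APOE4 replicate 5. Without APOE2 replicates 2 and 3 together they were 558, 154, 18 and 825 in that order. The cause was not tested. No paired analysis was possible because replicate numbers follow accession order only. Hemoglobin reads are few, and near-identical copies limit what each can show.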

Other observations

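With the Hbb-bs level as a further term beside genotype and sex, a fit added after seeing the data, 630 genes were called for APOE2 over APOE3, of which 559 were among the 738 called without it. For APOE4 over APOE3 the counts were 145, with 130 of the 146 shared, and for APOE2 over APOE4 823, with 714 of the 1233 shared.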
